A study of Homo sapiens with 10 samples.

Results

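The second day of arginine starvation in CWR22Rv1 cells was described gene by gene, as the log2 value after 48 h in arginine-free medium minus the log2 value after 24 h. CWR22Rv1 is a human prostate cancer cell line from a xenograft that had relapsed after castration. The comparison used 2 of the 10 Clariom S human arrays in the series, 1 array a side, both from the same time course. The 48 h and the 24 h culture were both kept in RPMI without arginine and with dialyzed serum. The first array of the time course, called 0 h here, came from cells kept for 24 h in control medium, which is the same medium with 200 mg/L of arginine added. The other arrays served only as a measure of replicate error and as values set beside. They came from an experiment with dimethyl α-ketoglutarate (DMKG), a cell-permeable analog of α-ketoglutarate, in CWR22Rv1 cells, and from PC3, a second established prostate cancer line. In the DMKG experiment, cells starved for 48 h and cells in control medium for 48 h had 1 array each, and the third array, starved cells given DMKG, was not used in a comparison. PC3 cells starved for 48 h and PC3 cells in control medium for 48 h had 2 arrays each.

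Arginine is a semi-essential amino acid, and cells that make little argininosuccinate synthase depend on arginine from the medium. Lack of an amino acid leaves tRNAs uncharged and activates the kinase GCN2, which phosphorylates eIF2α. This lowers general translation and favours translation of the transcription factor ATF4, whose targets form the integrated stress response (ISR). Amino acids also hold mTORC1 active, and cells that run short of them commonly slow their passage through the cell cycle. Histones of the replication-dependent kind are made in S phase, and the kinases, motors and kinetochore proteins of mitosis are made mainly in G2 and M phase.

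With 1 array a side no test was possible, so differences are given as they were measured. The labels give no 48 h array in control medium within the time course, and time without arginine and time in culture therefore cannot be told apart between 24 h and 48 h. Of 17687 genes, 7764 (43.9%) had a mean over the 3 time course arrays at or above 7.15, the 95th percentile of 612 negative control probe sets, which is called the level below. Of the luminal prostate markers, 4 of 7 measured lay above the level at both times, and none of 2 basal, 3 fibroblast and 3 leukocyte markers did. Of 4 genes typical of PC3 cells, 1 lay above the level at both times. The 0 h array stood apart from the control array of the DMKG experiment. After quantile normalization over all arrays, the median of the 27 measured ISR genes was 10.8 on the 0 h array, against 8.03 on the control array of the DMKG experiment. CHAC1, an ISR target that degrades glutathione, stood at 12.7 on the 0 h array and 6.94 on that control array. HMGCS1, an enzyme of cholesterol synthesis, stood at 9.87 on the 0 h array and 12.5 on that control array. Differences from 0 h, and the grouping of genes that uses them, rest on this array. The difference between 48 h and 24 h does not use it.

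Between 24 h and 48 h more genes passed 2-fold downwards than upwards, while by any size 51.7% of all genes were higher and 48.3% lower at 48 h. Of all 17687 genes, 190 (1.07%) were at least 2-fold higher at 48 h and 357 (2.02%) at least 2-fold lower, 3.09% in all. Among genes at or above the level, 72 (0.927%) were at least 2-fold higher and 214 (2.76%) at least 2-fold lower, 3.68% in all. The median difference over all genes was 0.02 on the log2 scale. As a measure of replicate error, the paired PC3 arrays of 1 condition differed by 2-fold or more in 23 genes at or above the level (0.296%) among starved cells and in 30 (0.386%) among control cells. In those pairs 99% of the genes at or above the level differed by less than 0.82 in starved cells and less than 0.79 in control cells. At a difference of 1.5 on the log2 scale the time course had 10 genes higher and 45 lower at 48 h, while each PC3 pair had 1. Of the 72 genes higher, 11 had a 24 h value under the level, and of the 214 lower, 36 had a 48 h value under it. For such genes the size of the difference is only a bound, given here against the level itself, and against it 69 and 194 genes still passed 2-fold. This error was measured in another cell line, over genes picked by their time course mean, and the spread between separate CWR22Rv1 cultures is not known here.

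**Figure D1:**
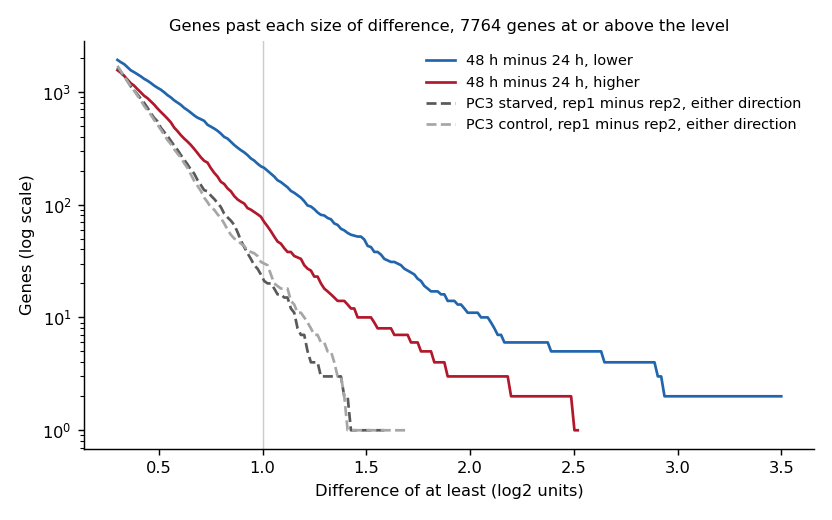
Number of genes (log scale) whose difference reaches each size (log2 units), among genes at or above the level. Solid lines show genes lower and higher at 48 h than at 24 h of starvation, and dashed lines the differences between PC3 replicates of 1 condition in either direction. At 1 log2 unit, 214 genes were lower and 72 higher at 48 h, against 23 and 30 in the PC3 pairs.

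Many of the genes past 2-fold on the second day had moved little on the first, though how many depends on what counts as little. Of the 190 genes at least 2-fold higher at 48 h than at 24 h, 112 had differed by less than 0.5 between 24 h and 0 h, 7 had already been at least 2-fold higher and 12 had been at least 2-fold lower. With 0.3 in place of 0.5, 67 of the 190 had moved little. Of the 357 genes at least 2-fold lower, 213 had differed by less than 0.5 before, 30 had been at least 2-fold higher and 6 already at least 2-fold lower. These are called added late (112 higher and 213 lower), continued (7 higher and 6 lower) and lost (30 that rose and then fell, 12 that fell and then rose). A further class, held, covers genes at least 2-fold different at 24 h that moved by less than 0.5 afterwards, and it held 151 genes above and 186 genes below 0 h. Among genes at or above the level the counts were 39 higher and 144 lower added late, 7 higher and 6 lower continued, 7 and 6 lost, and 100 higher and 113 lower held. The 24 h array enters both intervals with opposite sign, so an error on that array can place a gene among the lost.

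**Figure D2:**
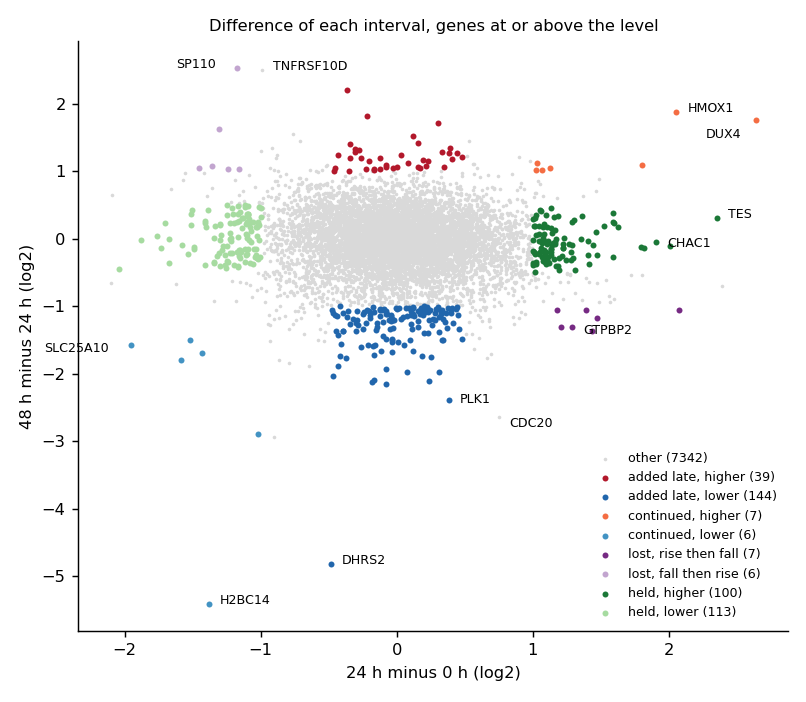
Difference of the second day (48 h minus 24 h, log2) against that of the first (24 h minus 0 h, log2) for genes at or above the level, coloured by class, with the number of genes in brackets. The 144 genes added late and lower lie below the centre, with DHRS2 and PLK1 among the lowest, and the continued falls of H2BC14 and SLC25A10 lie at the lower left.

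Replication-dependent histones fell most. All 49 measured genes of this family were lower at 48 h than at 24 h, where 48.3% of all genes were lower by any size. Their median difference was -1.06, against 0.02 over all genes, and 26 of 49 were at least 2-fold lower and none at least 2-fold higher. Over members at or above the level the median was -1.28. On the first day the median had been -0.17, and 3 of 49 were at least 2-fold lower. H2BC14, which encodes an H2B histone on chromosome 6, had the largest fall of any gene. Its values at 0, 24 and 48 h were 14.75, 13.36 and 7.95, so it fell by 5.41 on the log2 scale on the second day, or 42.6 times, and had fallen by 1.38 on the first. H2AC8, an H2A gene, stood at 11.03 at 48 h and 13.96 at 24 h and fell by 2.93. H2BC8, another H2B gene, stood at 8.23 at 48 h and 11.12 at 24 h and fell by 2.89. These 3 differences exceed every difference between PC3 replicates at or above the level, the largest of which was 1.71.

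Not every histone gene fell as far. The differences were -2.15 for H3C11 and -2.12 for the linker histone H1-2, and H3C10 fell at least 3.01-fold, to under the level. The abundant H2AC14 stood at 15.98 at 48 h and 17.42 at 24 h, and H4C3 at 16.56 at 48 h and 17.29 at 24 h, a difference of -0.73. H2BC21 differed by only -0.18, H2AC6 by -0.07 and H3C6 by -0.06. H2AC6 and H3C6 had values under the level at both times, where a further fall can hardly be seen. Copies of the same histone share nearly identical coding sequence, and the values of single copies are therefore uncertain, while the direction of the family is not tied to 1 copy. In bulk RNA, fewer cells in S phase and less histone mRNA per cell cannot be told apart, and the same holds for the mitotic genes below.

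The stretch before the start of transcription of both H2B genes with the largest falls is shown because both carry the octamer ATTTGCAT, a motif known from H2B promoters and bound by OCT1. The sequences are from RefSeq (GRCh38.p14), 250 bases ending at the base before the first start listed, 5′ to 3′ on the strand of the gene, with the octamer in capitals. H2BC14 lies on the plus strand at chr6:27814772-27815021 and H2BC8 on the minus strand at chr6:26216689-26216938.
H2BC14: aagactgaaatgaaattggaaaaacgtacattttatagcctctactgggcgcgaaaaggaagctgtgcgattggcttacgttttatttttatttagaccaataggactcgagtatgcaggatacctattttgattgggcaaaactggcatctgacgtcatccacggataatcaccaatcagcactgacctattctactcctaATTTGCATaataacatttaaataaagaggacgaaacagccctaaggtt
H2BC8: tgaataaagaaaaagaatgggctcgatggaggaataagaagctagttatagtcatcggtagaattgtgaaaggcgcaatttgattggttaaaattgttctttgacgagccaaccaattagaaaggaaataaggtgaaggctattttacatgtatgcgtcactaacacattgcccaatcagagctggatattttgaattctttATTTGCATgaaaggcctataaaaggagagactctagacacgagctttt
The octamer begins 48 bases before the start in both. It was found, on either strand, in 19 of the 45 histone promoters with an entry (42.2%) and in 1.59% of the 14250 promoters matched to a measured gene. It was chosen after the values were seen, and a match is a stretch of letters and not a bound site. The E2F motif (TTTCGCG or TTTGGCG, either strand) was in 10 of 45 histone promoters (22.2%) and in 3.54% of all.

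Genes of the G2 phase and of mitosis followed the histones. All 38 measured genes of the list of G2/M regulators and mitotic kinases were lower at 48 h than at 24 h, with a median of -0.94, and 18 were at least 2-fold lower, where 2.02% of all genes were. Their median on the first day was 0.00, and 1 of 38 was at least 2-fold lower by then. CDC20, the activator of the anaphase-promoting complex, stood at 13.24, 13.99 and 11.35 at 0, 24 and 48 h and fell by 2.64 on the second day, or 6.22 times. PLK1, a kinase of mitotic entry and spindle assembly, stood at 13.65, 14.04 and 11.65 and fell by 2.39, or 5.24 times. Neither had been lower at 24 h than at 0 h. CDKN3, a phosphatase that acts on CDK2, fell on both days, with differences of -1.59 and then -1.79. The differences were -1.71 for the securin PTTG1, -1.58 for BIRC5 (survivin), -1.38 for the proliferation marker MKI67, -1.31 for the kinase AURKA and -1.27 for the cyclin CCNB1. The smallest differences of the list were those of CDK1, the kinase these cyclins bind (-0.24), the checkpoint gene MAD2L1 (-0.12) and CKS1B (-0.04), each within the error of the PC3 pairs.

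The 39 measured genes of the spindle, the kinesins and the kinetochore were likewise all lower at 48 h, with a median of -0.88 (0.05 on the first day), and 14 were at least 2-fold lower, against the same 2.02% of all genes. The kinetochore protein CENPF stood at 8.94 at 48 h and 10.71 at 24 h and fell by 1.77. The kinetochore motor CENPE fell by 1.58. Of the cytokinesis kinesins, KIF20A stood at 8.45 at 48 h and 9.95 at 24 h, and KIF14, under the level on average, at 6.05 at 48 h and 7.60 at 24 h. SKA3, of the outer kinetochore, differed by -0.06. Over the 3 lists together, 126 of 126 measured genes were lower at 48 h than at 24 h and 58 were at least 2-fold lower, though histone copies may share signal. Genes of these lists made up 52 of the 214 genes at least 2-fold lower at or above the level (24.3%) and none of the 72 higher. Of all 7764 genes at or above the level, 104 were on these lists, and for 72 genes none is near that share.

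**Figure D3:**
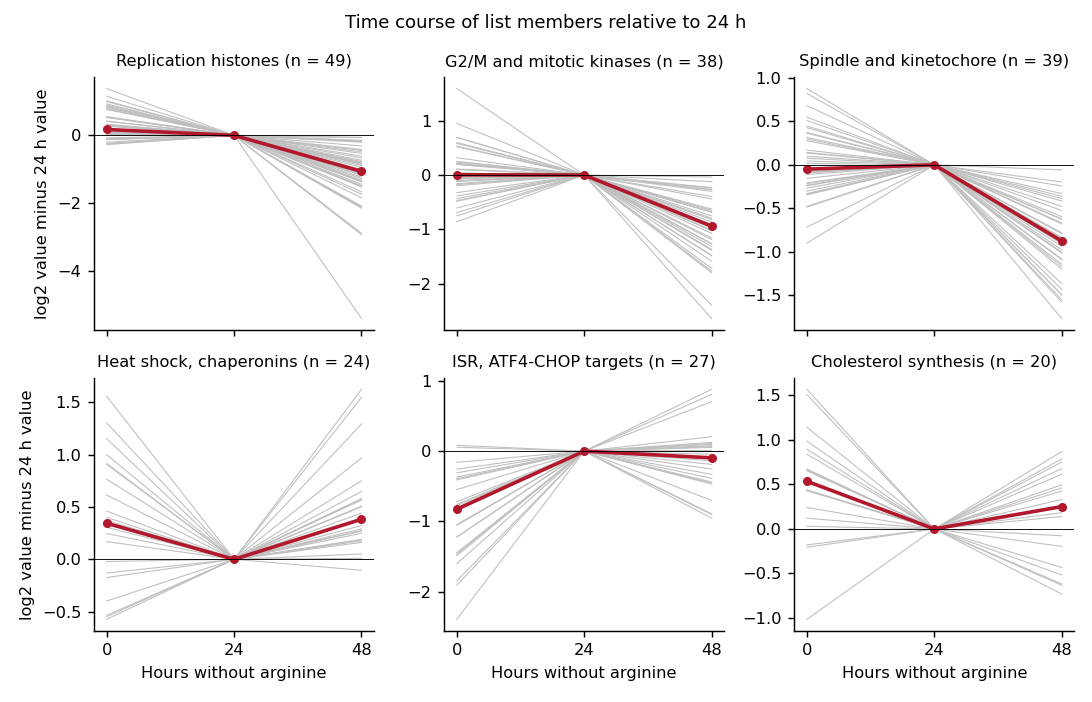
Values of the members of 6 gene lists at 0, 24 and 48 h, each minus its own value at 24 h (log2), with the scale set for each panel. Grey lines are genes and the red line is the median. Histone, mitotic and spindle genes leave the 24 h value downwards, with medians of -1.06, -0.94 and -0.88 at 48 h, ISR genes stay near it (-0.10), and heat shock and cholesterol genes turn upwards (0.38 and 0.25).

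The promoters of PLK1 and CDC20 are shown as an example of the CHR motif, TTTGAA, an element of many G2/M genes that is bound by MuvB complexes. The CHR is in capitals on either strand, and the sequences were taken as above (RefSeq, GRCh38.p14). PLK1 lies on the plus strand at chr16:23678639-23678888 and CDC20 on the plus strand at chr1:43358731-43358980.
PLK1: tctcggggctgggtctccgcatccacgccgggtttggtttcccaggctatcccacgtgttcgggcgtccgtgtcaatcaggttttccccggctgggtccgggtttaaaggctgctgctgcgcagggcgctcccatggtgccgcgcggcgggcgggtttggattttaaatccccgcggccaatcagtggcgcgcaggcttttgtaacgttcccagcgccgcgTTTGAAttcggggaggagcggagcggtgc
CDC20: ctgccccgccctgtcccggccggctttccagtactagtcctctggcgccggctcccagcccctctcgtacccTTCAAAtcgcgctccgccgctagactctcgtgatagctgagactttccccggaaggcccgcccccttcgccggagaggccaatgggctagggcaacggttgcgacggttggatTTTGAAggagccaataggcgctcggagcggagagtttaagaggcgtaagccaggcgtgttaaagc
The motif begins 29 bases before the start of PLK1, and 178 and 65 bases before that of CDC20, and overlaps no other motif searched. It was found in 16 of 29 promoters of the G2/M list (55.2%), in 13 of 34 of the spindle list (38.2%) and in 15 of 45 histone promoters (33.3%), against 10.7% of all 14250. Among all genes added late and lower, whatever their list, it was in 23 of 178 promoters (12.9%), near the share of all. CCAAT, a motif searched after the values were seen, was in 22 of 29, 24 of 34 and 39 of 45 of these promoters, against 34.6% of all.

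Genes of DNA replication moved much less than histones. Of 50 measured, 37 were lower and 13 higher at 48 h, with a median of -0.30, where 48.3% of all genes were lower by any size. Against 2.02% of all genes, 3 of the 50 were at least 2-fold lower. These were CDC45, a part of the replicative helicase (-1.72, with 9.35 at 48 h and 11.07 at 24 h), the licensing factor CDT1 (-1.07) and MCM10 (-1.06, under the level). The helicase core itself stayed near its 24 h value, with MCM2 to MCM7 between -0.53 (MCM5) and 0.26 (MCM6), and PCNA, the sliding clamp, differed by -0.18. Of 29 genes of homologous recombination and the Fanconi pathway, 23 were lower, against the same 48.3%, with a median of -0.29. Only 1 was at least 2-fold lower, against 2.02% of all genes, namely NBN, which senses DNA breaks. Its difference was -1.01, but -0.96 under another scaling, short of 2-fold. BRCA1 stood at 9.87 at 48 h and 10.71 at 24 h (-0.84), and RAD54L differed by -0.96. Of the 12 measured nucleotide and repair genes that the study followed by RT-qPCR, all were lower at 48 h, with a median of -0.51. The study itself chose that list, so its direction is not independent evidence. It held 2 genes at least 2-fold lower, against 2.02% of all genes. These were NBN and the end-joining nuclease DCLRE1C (-1.05, at least 1.83-fold, since its 48 h value lay under the level). RRM1 and RRM2, the subunits of ribonucleotide reductase, differed by -0.13 and -0.34. Nucleotide synthesis as a whole had a median of -0.15 and no gene past 2-fold in 29. Other repair genes had a median of -0.05 with 1 of 40 past 2-fold, DCLRE1C. Both counts lie near the share of all genes past 2-fold in either direction, 3.09%.

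Outside the cell cycle the largest fall was that of DHRS2, a short-chain dehydrogenase of the mitochondrion and nucleus. Its values were 11.65, 11.17 and 6.34 at 0, 24 and 48 h, with the 48 h value below the level, so it fell at least 16.2-fold on the second day. DHRS11, a relative, fell by 1.93, with 7.88 at 48 h and 9.81 at 24 h. Other genes that were under the level at 48 h fell at least 3.97-fold (the glucose-6-phosphate transporter SLC37A4), 3.77-fold (the porphyrin transporter ABCB6), 3.73-fold (PRR11, a gene of cell cycle progression) and 2.08-fold (the aminoadipate aminotransferase AADAT). Among mitochondrial enzymes IDH2, which makes α-ketoglutarate from isocitrate, fell by 1.26. The complex I assembly factors FOXRED1 and ACAD9 differed by -1.35 and -1.12. The ATP synthase subunit ATP5F1D fell by 1.59, with 10.62 at 48 h and 12.22 at 24 h.

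Most subunits of the respiratory chain stayed near their 24 h values on the second day. The medians were -0.06 for 32 subunits of complex I, 0.09 for 11 of complexes II and III, 0.09 for 11 of complex IV and -0.12 for 15 of complex V. At least 2-fold lower were NDUFB10 of complex I (-1.09) and ATP5F1D, where 2.02% of all genes were, and no subunit was at least 2-fold higher. On the first day these medians had been -0.04, -0.30, -0.27 and -0.37. NDUFA9, an accessory subunit of complex I, stood at 13.22, 12.32 and 12.14 at 0, 24 and 48 h, so nearly all of its difference was present at 24 h. COX5A of complex IV stood at 14.02, 13.47 and 13.02, with a like step on each day, and SDHA of complex II at 12.13, 11.47 and 11.55. NDUFA8, at 9.37 at 48 h and 8.43 at 24 h, was higher by 0.94 after having been lower. The 13 measured respiratory chain genes that the study followed by RT-qPCR had a median of -0.23 and 11 of 13 were lower, where 48.3% of all genes were. On the first day their median had been -0.61, with all 13 lower. The study chose this list as well, so its direction is not independent evidence. Enzymes of the TCA cycle had a median of -0.19 with 1 of 28 at least 2-fold lower, IDH2, against 2.02% of all genes. Mitochondrial import had a median of -0.17. The 74 mitochondrial ribosomal proteins had a median of -0.08 and none passed 2-fold, where 3.09% of all genes did.

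Among genes above the level at both times, the largest rise was that of ANTXR1, a receptor that binds collagen and anthrax toxin, which stood at 10.55 at 48 h and 8.36 at 24 h and rose by 2.20. IGFBP3, which binds insulin-like growth factors, stood at 15.08 at 48 h and 13.37 at 24 h and rose by 1.71. Some genes were above the level only at 48 h, so their rises are bounds. SP110, an interferon-inducible nuclear body protein, had measured values of 7.14, 5.97 and 8.49 at 0, 24 and 48 h and rose at least 2.54-fold on the second day. TNFRSF10D, a decoy receptor for the death ligand TRAIL, followed the same course (7.14, 6.16 and 8.65) and rose at least 2.83-fold. The Wnt carrier WLS (6.72, 6.50 and 8.32) rose at least 2.25-fold. ANXA2 rose by 1.42, RPS27L by 1.40 and the monocarboxylate carrier family member SLC16A4 by 1.35. Of the 72 genes at least 2-fold higher at or above the level, 50 belonged to none of the 53 lists. The lists held only 1430 of all 17687 genes, so most genes of any kind belonged to none.

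Heat shock genes turned upwards after a dip. Of 24 measured heat shock and chaperonin genes, 23 were higher at 48 h than at 24 h, where 51.7% of all genes were higher by any size. The median was 0.38, the highest of all 53 lists over all measured members, and 3 were at least 2-fold higher, against 1.07% of all genes. Over members at or above the level it was also 0.38, under the 0.81 of secreted stress factors and the 0.41 of MondoA targets. On the first day the median of the 24 genes had been -0.34, and 3 were at least 2-fold lower, against 1.54% of all genes. HSPA2, an HSP70 protein, stood at 9.27, 7.97 and 9.60 at 0, 24 and 48 h and rose by 1.63. Its cochaperone DNAJA1 stood at 12.90, 12.13 and 13.68 and rose by 1.55, and the stress-inducible HSPA1A stood at 10.27, 9.27 and 10.57 and rose by 1.29. HSPA1A and its copy HSPA1B share nearly the same sequence and are uncertain as single genes. HSPH1 (0.97), DNAJB1 (0.75) and HSPB1 (0.50) were higher at 48 h but still below their 0 h values. The mRNA of HSF1, a factor that drives many heat shock genes, differed by 0.01. Whether HSF1 drives the genes listed here was not tested.

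The promoters of DNAJA1 and HSPA1A are shown for the heat shock motif GAANNTTC, the core of the element that HSF1 binds, which was searched after the values were seen. The motif is in capitals, and the sequences were taken as above. DNAJA1 lies on the plus strand at chr9:33025023-33025272 and HSPA1A on the plus strand at chr6:31815293-31815542.
DNAJA1: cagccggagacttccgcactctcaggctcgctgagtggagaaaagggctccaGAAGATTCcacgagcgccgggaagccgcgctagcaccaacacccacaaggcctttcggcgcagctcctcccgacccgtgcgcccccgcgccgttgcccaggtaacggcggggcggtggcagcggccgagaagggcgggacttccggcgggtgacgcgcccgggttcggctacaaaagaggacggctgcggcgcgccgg
HSPA1A: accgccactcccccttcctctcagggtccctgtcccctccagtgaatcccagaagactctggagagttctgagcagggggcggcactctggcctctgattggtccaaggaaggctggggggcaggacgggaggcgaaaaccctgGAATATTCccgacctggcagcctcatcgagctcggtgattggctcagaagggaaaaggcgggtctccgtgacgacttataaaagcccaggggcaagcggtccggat
It begins 198 bases before the start of DNAJA1 and 106 bases before that of HSPA1A. It was found in 6 of 21 promoters of the list (28.6%) and in 4.65% of all 14250.

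Immediate early genes and p53 targets gained members on the second day. Of 31 measured AP-1 and immediate early genes, 7 were at least 2-fold higher at 48 h than at 24 h (1.07% of all genes were) and none lower, with a median of 0.26, or 0.12 over members at or above the level. The nuclear receptor NR4A1 stood at 9.35 at 0 h and 9.47 at 24 h and rose by 1.53 to 48 h. KLF10, a TGF-β-inducible repressor, rose by 1.21 and the phosphatase DUSP2 by 1.04. NR4A3, KLF2, IER5 and EGR3 also passed 2-fold, but their means lay under the level. The classical members FOS (-0.12) and JUN (-0.18) and EGR1 (0.26) were within the error of the PC3 pairs, and ATF3 differed by -0.70 after a rise by 2.39 on the first day. Of 26 measured p53 targets 19 were higher, where 51.7% of all genes were, with a median of 0.28, and 3 were at least 2-fold higher, against the same 1.07%. The CDK inhibitor CDKN1A stood at 11.35, 11.79 and 13.06 and rose by 1.27. The death effector BAX stood at 11.15, 10.92 and 11.95 and rose by 1.03. TIGAR, a phosphatase that limits glycolysis, rose by 1.28 with a mean under the level. Among 34 apoptosis regulators 3 were at least 2-fold higher, against the same 1.07%, and none lower. These were BMF (1.15), BAX and CASP4 (1.17, under the level). The median was 0.20, or 0.12 over members at or above the level.

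Few genes went on in the direction of the first day by 2-fold or more. Of the 7 that rose on both days, HMOX1, which degrades heme, stood at 5.77, 7.83 and 9.71 at 0, 24 and 48 h and rose by 2.06 and 1.88. Its 0 h value lay under the level, so the size of the first rise is uncertain, and its place in this class rests on it. DUX4 stood at 6.26, also under the level, 8.90 and 10.66, but it lies in a repeat with many copies and the value cannot be tied to 1 gene. GABARAPL1, an ATG8 protein of autophagosomes, stood at 8.38, 10.19 and 11.28. Its partner SQSTM1, a cargo receptor, was higher by 0.90 on the first day and 0.76 on the second, under the limit on each. Among the 6 that fell on both days were H2BC14, H2BC8 and H2BC26, CDKN3, the coactivator RBM14 (12.03, 10.60 and 8.91) and the mitochondrial dicarboxylate carrier SLC25A10 (10.20, 8.24 and 6.67, the last of these under the level).

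Gains of the first day that were given back on the second included CYP1A1, a xenobiotic-metabolizing enzyme (8.64, 10.08 and 8.71 at 0, 24 and 48 h), the GTP-binding protein GTPBP2 (11.94, 13.23 and 11.92) and the arrestin ARRDC3 (9.44, 10.92 and 9.74). TXNIP, a relative of ARRDC3 and like it a target of MondoA, was instead higher by 0.85 at 48 h. SESN3, an inhibitor of mTORC1 signalling, fell by 1.59 after a rise by 1.24, with a mean under the level. Falls that were reversed included HSPA2, the peroxiredoxin PRDX1 (13.82, 12.47 and 13.54) and TIMM17A of the mitochondrial import channel (11.73, 10.58 and 11.61).

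ISR genes rose on the first day, and by their median stayed near the 24 h value on the second. Of 27 measured regulators and targets of ATF4 and CHOP, 11 were at least 2-fold higher at 24 h than at 0 h, where 1.54% of all genes were. None passed 2-fold in either direction on the second day, which for 27 genes is near the 3.09% of all genes. The median was 0.83 on the first day and -0.10 on the second. Of those 11 genes, 6 moved by less than 0.5 on the second day and the others by -0.90 to 0.88. CHAC1 stood at 12.48, 14.38 and 14.34 at 0, 24 and 48 h. DDIT4, an inhibitor of mTORC1, stood at 12.51, 13.97 and 14.07, the cystine carrier SLC7A11 at 14.02, 15.24 and 15.11 and asparagine synthetase ASNS at 14.25, 15.30 and 15.36. The list parted within itself. The cytokine GDF15 (0.88) and the hormone STC2 (0.81) went on upwards, while DDIT3, which encodes CHOP, differed by -0.95, the ER stress sensor ERN1 by -0.90 and JDP2 by -0.89. The composite motif TGATGNAA, which ATF4 with a C/EBP partner binds, was found on either strand in 4 of 24 ISR promoters (16.7%) and in 2.20% of all 14250. Among all genes held above 0 h it was in 3 of 126 promoters (2.38%), near the share of all. ER stress genes proper had a median of 0.02, with DERL3, a factor of ER-associated degradation, at least 2-fold lower (-1.17). Other genes held above 0 h were TES, a focal adhesion protein (11.73, 14.09 and 14.40), and the transcription factors CREB5 (7.62, 9.63 and 9.52) and ELF3 (7.26, 9.08 and 8.94). Among those held below 0 h were the actin-binding calponin CNN2 (9.05, 7.01 and 6.56) and the splicing factor RNPS1 (12.58, 10.70 and 10.68).

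Of 22 measured arginine and polyamine genes, 1 was at least 2-fold higher and 2 lower at 48 h, against 1.07% and 2.02% of all genes, with a median of -0.08. ASS1, argininosuccinate synthase, had measured values of 7.10, 7.13 and 8.38 at 0, 24 and 48 h, the first 2 just under the level, and rose at least 2.35-fold on the second day. ASL, the next enzyme, stood at 9.46, 10.10 and 9.08, a difference of -1.02 that was -0.97 under another scaling, short of 2-fold. The other was GATM of creatine synthesis (-1.13, under the level). Among 28 amino acid transporters (median 0.03), SLC7A6, an exchanger of cationic and neutral amino acids, rose by 1.34 and SLC43A1, a carrier of large neutral amino acids, fell by 1.05. Cytosolic aminoacyl-tRNA synthetases had a median of 0.16, and RARS1, which charges tRNA with arginine, stood at 11.92 at 48 h and 11.11 at 24 h (0.81). Serine and one-carbon synthesis had a median of -0.21, with PHGDH, its entry enzyme, at 0.49. Neither list had a gene past 2-fold.

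By its median, cholesterol synthesis and uptake came back in part, but not by the count of genes far below 0 h. At least 2-fold below 0 h were 3 of 20 genes at 24 h, where 1.54% of all genes were, and 6 of 20 at 48 h. The median of 20 genes was 0.25 on the second day after -0.54 on the first, with 13 higher, 7 lower and none past 2-fold, and 0.38 over members at or above the level. HMGCS1 stood at 9.60, 8.04 and 8.90 at 0, 24 and 48 h. The others did not all follow, and SQLE, the squalene epoxidase, differed by -0.63 under the level, and PMVK, a kinase of the mevalonate pathway, by -0.73. Fatty acid genes had a median of -0.02 (0.0733 over members at or above the level), glycolysis and hypoxia targets 0.18 (0.0323), autophagy 0.09, lysosome 0.09 (0.20), proteasome 0.06, ribosome biogenesis 0.14, and translation factors 0.16. Each of these lists had 0 to 2 genes past 2-fold, where 3.09% of all genes were. The 2 of the lysosome list were ATP6V1H, a subunit of the proton pump (1.31), and the glucuronidase GUSB (-1.08).

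Most innate immune genes lay under the level. Of 44 measured interferon-stimulated genes, 1 was at least 2-fold higher at 48 h (GBP1, 1.06, under the level), against 1.07% of all genes. By any size 22 were higher and 22 lower, where 51.7% and 48.3% of all genes were. The median was 0.03, and only 10 of the 44 lay at or above the level. The median of those 10 was -0.33. USP18 and IFITM1, which did, differed by -0.96 and -0.82. IFNB1 had values of 3.61 at 48 h and 2.96 at 24 h. CGAS, the cytosolic DNA sensor, had 2.99 at 48 h and 2.78 at 24 h, and STING1, its adaptor, 4.31 at 48 h and 3.65 at 24 h. All 3 were well under the level. The NK cell ligand ULBP2 rose by 1.43, with 5.38 at 48 h and 3.95 at 24 h, under the level at both times, and its relative ULBP1 was held (5.71, 7.56 and 7.68 at 0, 24 and 48 h). CXCL8, at 4.06 at 48 h and 2.74 at 24 h, passed 2-fold (1.31) but also lay under the level. For genes under the level, replicate differences in the PC3 pairs had a root mean square of 0.40, against 0.26 at or above it. The level was set on the time course arrays, and some of these genes are bright in PC3 cells. CXCL8 stood at 14.27 and 14.10 in control PC3 cells. The 0.40 is therefore not the error of dim values alone.

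Enzymes that write and remove histone methylation parted as well. Of 26 measured histone methyltransferases 18 were lower at 48 h, where 48.3% of all genes were, with a median of -0.38. At least 2-fold lower were 2 and higher 1, against 2.02% and 1.07% of all genes. EZH2, which methylates histone H3 at lysine 27, stood at 12.27, 11.83 and 10.68 at 0, 24 and 48 h and fell by 1.15. The DNA methyltransferase DNMT3B, listed with them, fell by 1.56 under the level, and PRDM2, an H3 lysine 9 methyltransferase, rose by 1.05. The 31 α-ketoglutarate-dependent demethylases had a median of 0.00 (-0.0858 at or above the level). Of them 1 was at least 2-fold higher and 1 lower (KDM4D, -1.11, under the level), against the same 1.07% and 2.02%. KDM5B, which removes methyl groups from H3 lysine 4, stood at 10.85 at 48 h and 9.64 at 24 h and rose by 1.21.

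Across the 53 lists, 38 had a median within 0.2 of 0 on the second day and 16 had no gene past 2-fold. Luminal and androgen receptor genes had a median of 0.01 (0.15 at or above the level), with the keratin KRT8 at 0.83 and the elongation factor ELL2 at -0.78, and none past 2-fold.

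**Figure D4:**
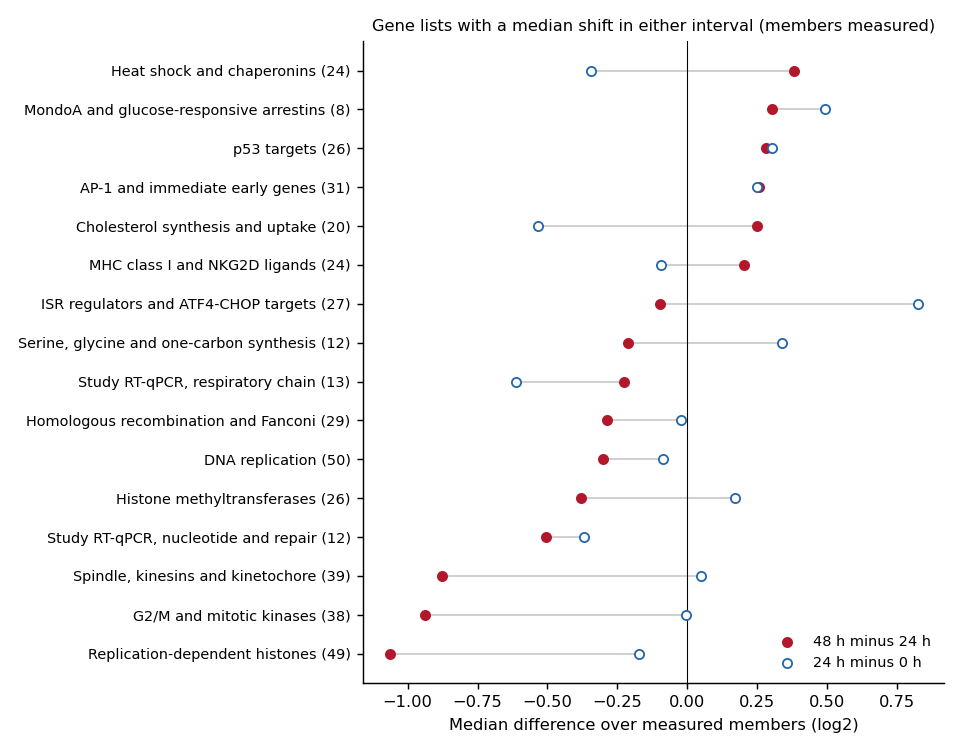
Median difference (log2) over the measured members of 16 gene lists, with the number of members in brackets. Filled points show 48 h minus 24 h and open points 24 h minus 0 h. Histone, mitotic and spindle genes lie near 0 on the first day and at -1.06, -0.94 and -0.88 on the second, and ISR genes at 0.83 on the first and -0.10 on the second.

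The classes were then looked up in arrays they had not used. In the DMKG experiment 7.67% of all genes were at least 2-fold different between starved cells and control cells (4.05% higher and 3.61% lower in starved cells), and in PC3 cells 10.9% (4.95% higher and 5.98% lower). Arrays of the DMKG experiment hold exactly equal values for 3821 to 4650 genes between any 2 of them, against 8 to 22 in the time course, so medians there can lie at exactly 0. The median over all genes was 0.00 in the DMKG experiment and 0.02 in PC3 cells. Genes held above 0 h had a median of 1.08 in the DMKG experiment, where 82 of 151 were at least 2-fold higher and none lower, and of 0.72 in PC3 cells. Genes held below had medians of -0.97 in the DMKG experiment and -0.45 in PC3 cells. The 6 continued falls had medians of -2.40 in the DMKG experiment and -3.84 in PC3 cells, and all 6 were lower in starved cells in both.

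The 213 genes added late and lower had a median of -0.30 in the DMKG experiment, with 25 at least 2-fold lower and 2 higher, and of -0.64 in PC3 cells, with 90 at least 2-fold lower and 2 higher. Those at or above the level had medians of -0.33 in the DMKG experiment and -1.01 in PC3 cells. The 112 genes added late and higher had a median of 0.13 in each, and those at or above the level medians of 0.45 in the DMKG experiment and 0.48 in PC3 cells. The 30 genes that rose and then fell had medians of 0.40 in the DMKG experiment and 0.12 in PC3 cells. Across genes at or above the level, the second day correlated with the DMKG experiment at r = 0.180 and with PC3 cells at r = 0.340 (n = 7764 genes), and the first day with the DMKG experiment at r = 0.645 and with PC3 cells at r = 0.378. These are descriptions over genes, which are no replicates, and all points of a correlation share the same arrays.

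For the histones the DMKG experiment gave a median of 0.00 with 3 of 49 at least 2-fold lower, and PC3 cells a median of -1.36 with 32 of 49 lower. The G2/M list had medians of -0.39 in the DMKG experiment and -2.97 in PC3 cells, and the spindle list of -0.38 in the DMKG experiment and -2.96 in PC3 cells. The ISR list had a median of 2.55 in the DMKG experiment, with 20 of 27 at least 2-fold higher, against 4.05% of all genes. In PC3 cells its median was 2.23, with 24 of 27 at least 2-fold higher, against 4.95%. None of the 27 was at least 2-fold lower in either. H2BC14 was lower in both, at 10.34 in starved and 13.72 in control cells of the DMKG experiment, and at 10.49 and 9.94 in starved against 15.97 and 15.85 in control PC3 cells. PLK1 stood at 13.17 in starved and 13.99 in control cells of the DMKG experiment, and at 9.39 and 9.60 in starved against 14.77 and 14.66 in control PC3 cells. DHRS2, in contrast, stood at 8.92 in starved and 7.94 in control cells of the DMKG experiment, and at 5.78 and 6.95 in starved against 7.29 and 6.98 in control PC3 cells. SP110 differed by -0.08 in the DMKG experiment and by -0.54 in PC3 cells. The heat shock list had a median of -0.51 in the DMKG experiment, with 21 of 24 genes lower and 2 higher in starved cells. There 7 were at least 2-fold lower and none higher, against 3.61% and 4.05% of all genes. In PC3 cells its median was -0.24, with 2 at least 2-fold lower and 1 higher, against 5.98% and 4.95%. HSPA1A, the 1 higher in PC3 cells (by 1.41), was lower by 1.25 in starved cells of the DMKG experiment (10.39, against 11.63 in control cells). Whether the second day in the time course and the 48 h arrays of the other experiment differ in culture or in array was not tested.

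**Figure D5:**
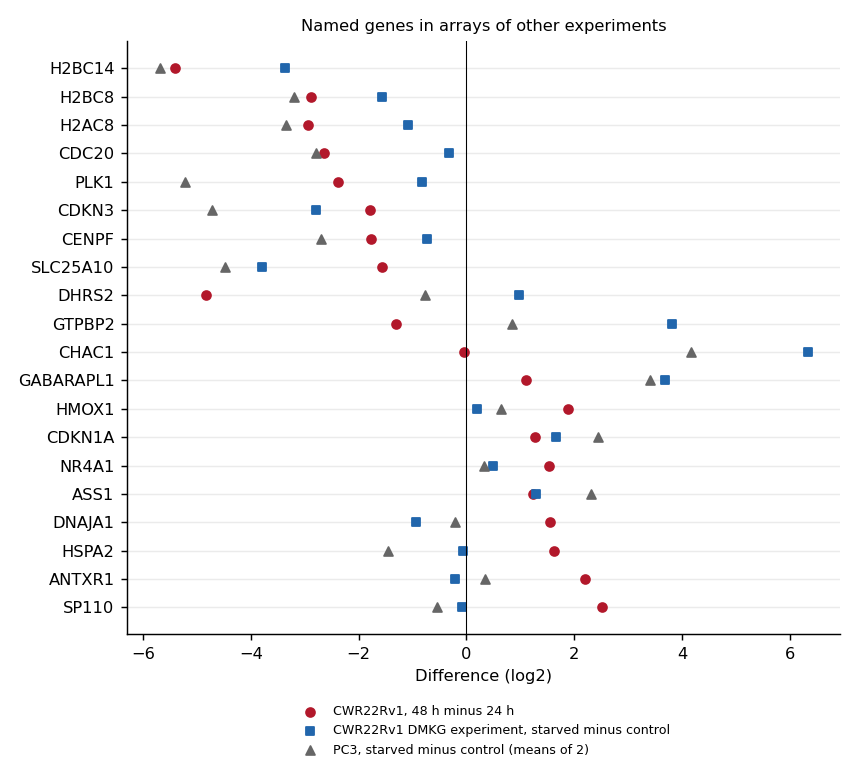
Differences (log2) of 20 named genes on the second day of the time course (circles), between starved and control cells of the DMKG experiment (squares) and between the means of starved and control PC3 cells (triangles). H2BC14, H2BC8 and CDKN3 lie far to the left in all 3. DHRS2 differs by -4.82 on the second day, 0.98 in the DMKG experiment and -0.77 in PC3 cells. In the same order the differences are 2.53, -0.08 and -0.54 for SP110 and 1.63, -0.07 and -1.45 for HSPA2.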

How the data were processed

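The deposited log2 values of 24351 probe sets on 10 Clariom S arrays were used. Per the submitters' processing notes the authors made them with the Transcriptome Analysis Console. How background and arrays were adjusted, and by which version, was not given in the sources used here. Of the probe sets, 17709 carried 1 gene symbol in the platform annotation and all of these matched RefSeq. Where several stood for a gene (20 genes), the one with the highest mean was kept, which left 17687 genes. No filter on low values was applied to the counts. Differences are plain log2 differences, and the limit was 2-fold (1 on the log2 scale), with 0.5 as the limit for little change. Groups came from the sample labels. No test was run, since the 48 h, 24 h and 0 h groups have 1 array each, and the number of arrays limits the precision. The labels do not say whether the PC3 replicates were separate cultures, so their spread may be technical.

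The members, the 53 gene lists and the limits were chosen with earlier results of these data known. Named genes were the 15 largest rises and 15 largest falls at or above the level, the 8 largest of each class, up to 3 of each list, and the genes followed by RT-qPCR. Other names were added after their values were seen, to show the range of a list. Bounds against the level were added after the values were seen, and only for 48 h against 24 h. The classes were checked on simulated data. Alternatives were 3 scalings, the mean of all probe sets, genes under the level left out, other fold limits and another limit for little change. Promoter sequences are from RefSeq (GRCh38.p14), 250 bases before the first start listed, for 14250 genes. Python 3.11.15 was used with pandas 2.3.3, numpy 2.4.6 and matplotlib 3.10.9.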

Additional observations from a re-analysis of the deposited data

Results flagged for a closer look

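SP110 was the only named gene that lay at least 2-fold below 0 h at 24 h of starvation and at least 2-fold above it at 48 h, with differences from 0 h of 1.35 at 48 h and -1.17 at 24 h. The difference between 48 h and 24 h was 2.53, but the values at 24 h and 0 h lay under the level, so its size is uncertain. It rests on 1 array a side and was not tested.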

How the results depend on the processing

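No paired analysis was possible because the 48 h and 24 h groups hold 1 array each and carry no replicate numbers, and for the same reason leaving out an array was not run. Centring each array on its median, and averaging the probe sets that a gene has, moved no count by over 1.5 times and no list median by more than the spread of list medians between PC3 replicates (0.0664). All 203 named genes moved by less than the spread of single genes under these and the quantile scalings, and 196 stayed on their side of 2-fold (all but ASL, NBN, MITF, TNFAIP3, CXCL1, ITGB4 and MCIDAS). Quantile normalization over the 3 time course arrays gave medians of 0.24 for tRNA synthetases and 0.14 for the proteasome, and over all 10 arrays 0.13 for the proteasome, -0.97 for histones and 27 genes that fell and then rose.

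Leaving out genes under the level left 72 genes higher and 214 lower, 39 added late and higher, 7 and 6 lost, and 100 and 113 held. It turned the medians of the circadian clock (0.09 with all genes) to -0.36 and of cilium genes (0.12 with all genes) to -0.0221. It gave medians of -1.28 for histones, -0.57 for the RT-qPCR list of nucleotide and repair genes, -0.33 for interferon-stimulated genes, -0.13 for CDK inhibitors and -0.0858 for demethylases. It gave 0.81 for secreted stress factors, 0.41 for MondoA targets, 0.38 for cholesterol synthesis, 0.20 for the lysosome, 0.15 for androgen receptor targets, 0.12 for AP-1 genes, 0.12 for apoptosis, 0.11 for MHC and NKG2D ligands, 0.0733 for fatty acid genes, 0.0647 for NF-kB cytokines and 0.0323 for glycolysis.

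With a limit of 1.5-fold there were 1318 genes higher and 1492 lower, 896 and 926 added late, 74 and 141 continued, 313 and 257 lost, and 967 and 948 held. With a limit of 3-fold there were 19 higher and 47 lower, 10 and 25 added late, 2 and 1 continued, 0 and 1 lost, and 14 and 13 held. With 0.3 as the limit for little change, 67 genes were added late and higher and 123 held lower. Leaving out genes of equal value, chosen after seeing the data, gave medians in the DMKG experiment of 0.36 for genes added late and higher, 0.49 for those that rose and then fell, -1.20 for those that fell and then rose and -1.05 for those held lower. The cause of these differences was not tested beyond the fewer genes counted. Values near background limit the low genes, and 1 array a side leaves the error of every difference unknown in this line.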

Other observations

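Zinc finger genes whose symbol begins with ZNF, a family chosen after its values were seen, stood out among genes held above 0 h. Of 253 such genes at or above the level, 14 were held (5.53%, against 1.29% of all genes at or above the level). Their median was 0.30 on the first day and 0.07 on the second. In starved against control cells the median was 0.45 in the DMKG experiment and 0.38 in PC3 cells. ZNF85 stood at 10.66, 12.45 and 12.32 at 0, 24 and 48 h. Many genes of this family are near copies of each other, so values of single genes are uncertain.

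The 4 FAM72 genes, near-identical copies expressed in cycling cells, were all at least 2-fold lower at 48 h than at 24 h, with differences from -1.74 to -1.51. Probe sets of such copies cannot be told apart. Of 8 DHRS dehydrogenases at or above the level, likewise chosen after their values were seen, 3 were at least 2-fold lower, against 2.76% of all such genes. Of 3833 probe sets that are no controls and carry no single symbol, 52 were at least 2-fold higher and 81 lower at 48 h. They were not named here.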
